A study of Rattus norvegicus with 12 samples.

Results

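Genes of the interferon response and of antigen presentation were followed across 12 Illumina RatRef-12 arrays of cultured rat hippocampal neurons. Members were the 89 probes, of 13793 that the platform annotation paired with 1 gene symbol, whose platform gene symbol began with RT1-, Ifi, Isg or Oas, with Irf or Stat and a digit, or was Mx1, Mx2, Tap1, Tap2, B2m, Cd74, Psmb8, Psmb9 or Psmb10. They stood for 87 of 13337 genes so named, since Psmb10 and Stat2 had 2 probes each. Membership was read from the symbol.

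Cultures came from Sprague Dawley rat embryos at embryonic day 18.5 and were grown for 12 days over a layer of glia, so each sample held RNA of neurons and of glia, pooled from 3 coverslips. All cultures first spent 3 h in inhibitors: D-APV (50 µM) and CNQX (40 µM), which block glutamate receptors, and TTX (100 nM), which blocks spiking. In Activity cultures the inhibitors were then washed out. These cultures received BiC, or bicuculline (50 µM), with 4-AP, or 4-aminopyridine (500 µM), for 5 min, which releases synaptic firing, and Block cultures stayed in the inhibitors. Both were run with 25 µM actinomycin D (ActD), which stops transcription and was given from before the stimulus, and without it. RNA was harvested at the end of the 5 min or at 30 or 60 min. After the 5 min, cultures not yet harvested received new medium without BiC and 4-AP. Activity+ActD, Activity, Block+ActD and Block were each measured on 1 array per harvest, and all arrays carried replicate number 3. No combination was replicated, so the 3 harvests stood in for replicates of a treatment, and the 4 treatments for replicates of a harvest. The p-values measure the spread between these arrays only, which may be technical, because the sources do not say that the cultures came from separate preparations. Nor do they say whether the cultures of 5 min were prepared together with the others, so harvest time and any such batch cannot be told apart. The change of medium came before the later harvests only, so it cannot be told apart from harvest time either.

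Interferons are secreted proteins that warn cells of infection. Their receptors act through Jak kinases and Stat proteins, and a complex that holds Stat2 and Irf9 binds the interferon-stimulated response element (ISRE) of antiviral genes. Promoters of genes that answer interferon gamma often carry the gamma-activated site (GAS). Class I molecules of the rat major histocompatibility complex, named RT1, show peptides made by the immunoproteasome and moved by the Tap transporter to CD8 T cells, and class II molecules show peptides to CD4 T cells. In the brain, microglia and astrocytes are the best known responders, and neurons usually carry less class I than they do.

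Promoters from RefSeq (rat GRCr8, 250 bases before to 50 bases after the annotated start) were matched to 74 of the 87 member genes. The core of the ISRE was searched as GAAANNGAAA and the core of the GAS as TTCNNNGAA, on both strands. The next 5 promoters are picked examples. Ifitm3, Irf7, Ifi44 and Psmb8 held cores and were far lower at the later harvests. Irf3 held neither core and was called lower by a small amount. RT1-A1, RT1-A3, Psmb9 and Mx1, not shown, also held neither core but were called lower by larger amounts. Capitals mark the cores, and the sequence is that of the gene's own strand.
Ifitm3 (chr1:205541709-205542008, minus strand): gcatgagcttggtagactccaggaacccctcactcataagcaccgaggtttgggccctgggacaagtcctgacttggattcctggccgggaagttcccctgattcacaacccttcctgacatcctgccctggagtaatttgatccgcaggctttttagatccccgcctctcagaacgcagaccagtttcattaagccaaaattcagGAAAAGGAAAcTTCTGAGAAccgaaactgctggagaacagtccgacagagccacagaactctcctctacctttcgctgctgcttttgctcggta
Irf7 (chr1:205799974-205800273, minus strand): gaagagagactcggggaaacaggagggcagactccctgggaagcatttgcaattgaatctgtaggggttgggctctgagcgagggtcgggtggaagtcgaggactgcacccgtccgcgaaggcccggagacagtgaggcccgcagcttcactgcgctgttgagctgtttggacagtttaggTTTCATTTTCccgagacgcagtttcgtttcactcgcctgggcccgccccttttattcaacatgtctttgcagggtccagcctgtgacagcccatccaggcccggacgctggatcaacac
Ifi44 (chr2:243303791-243304090, minus strand): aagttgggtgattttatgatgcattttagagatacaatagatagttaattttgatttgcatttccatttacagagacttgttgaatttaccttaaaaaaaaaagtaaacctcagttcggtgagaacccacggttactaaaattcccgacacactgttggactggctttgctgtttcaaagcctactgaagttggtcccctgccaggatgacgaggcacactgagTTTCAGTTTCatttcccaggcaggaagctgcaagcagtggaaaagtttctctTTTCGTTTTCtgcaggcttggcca
Psmb8 (chr20:4656982-4657281, minus strand): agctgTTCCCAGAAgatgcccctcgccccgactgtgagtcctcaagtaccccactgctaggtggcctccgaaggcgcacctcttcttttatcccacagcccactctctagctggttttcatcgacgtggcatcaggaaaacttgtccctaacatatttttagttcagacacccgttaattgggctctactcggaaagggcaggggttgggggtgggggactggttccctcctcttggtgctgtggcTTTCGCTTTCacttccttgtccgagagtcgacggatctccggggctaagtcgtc
Irf3 (chr1:104616358-104616657, plus strand): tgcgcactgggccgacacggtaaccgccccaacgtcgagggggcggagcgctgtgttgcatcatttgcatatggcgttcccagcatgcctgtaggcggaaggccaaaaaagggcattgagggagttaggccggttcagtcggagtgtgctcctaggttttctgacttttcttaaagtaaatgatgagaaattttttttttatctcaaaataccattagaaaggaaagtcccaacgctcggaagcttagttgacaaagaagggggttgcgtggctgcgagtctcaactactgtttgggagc
Ifitm3 held 1 ISRE core, starting 44 bases before the annotated start, and 1 GAS core, starting 33 bases before it. Irf7 held 1 ISRE core on the opposite strand, 69 bases before the start, and Ifi44 held 2, of which 1 lay 26 bases before it. Psmb8 held an ISRE core 4 bases before the start and a GAS core 245 bases before it. Over all member genes, 20 of 74 promoters (27.0%) held the ISRE core and 13 (17.6%) the GAS core, against 3.92% and 8.87% of 33469 promoters in the RefSeq table. A match to these letters is a description of the window and not a site of binding.

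Of the 89 member probes, 34 were detected on all 12 arrays (detection p under 0.01), 28 on none and 3 on 1 array. The 58 detected on at least 2 arrays were tested among 11792 probes in all. All 6 probes of the peptide supply genes (Psmb8, Psmb9, Psmb10, Tap1 and Tap2) were tested, as were 17 of 28 class I probes with B2m, 5 of 9 class II probes, 4 of 8 Irf probes, 4 of 7 Stat probes and 19 of 28 probes of interferon-stimulated effectors. Isg20l2, an RNA exonuclease, and Irf2bp1 and Irf2bpl, partners of Irf2, fell under the symbol rule and were tested as well. The members not above background on any array included Cd74, the invariant chain of class II, RT1-Ba, a class II alpha chain, Irf8, a factor of myeloid cells, and Ifit1, Ifit2 and Oas2, antiviral effectors. Isg15, the ubiquitin-like protein that interferon induces, was detected on 1 array only, Block+ActD of 60 min.

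Total intensity per array was 10858233 to 13824777, and 9751 to 11032 probes were detected. The number of members detected was 38 to 45 on the 8 later arrays (30 and 60 min) and 51 to 58 on the 4 arrays of 5 min, so the groups did not overlap. Markers of other cells moved with harvest as well. The summed raw intensity of 14 microglia marker probes was 691.3 to 917 on later arrays and 1794 to 2384.7 on arrays of 5 min. Of the 9 tested, 8 were called lower later. C1qa, C1qb, Ctss, Fcgr3a, Laptm5 and Tyrobp were detected at 5 min only, so they entered the test through those arrays alone. Their later levels are background, so the count called lower is partly set by the filter on detection. Aif1, a calcium-binding protein of microglia, was detected on 1 of 8 later arrays and on 4 of 4 arrays of 5 min, while Ptprc, P2ry12 and C1qc were detected on no array. Of 15 tested neuron markers, 12 were called higher at the later harvests and 0 lower. The summed raw intensity of 7 astrocyte markers was 44371.9 to 49363.9 later and 53504.5 to 64821 at 5 min, without overlap. Raw sums are not normalized, and total intensity was 10858233 to 13003220 later and 12643085 to 13824777 at 5 min. After normalization the astrocyte markers had a median difference of 0.02, later minus 5 min. Of these markers 4 were higher and 3 lower, with 3 called higher and 2 called lower. Of 6 tested fibroblast and vessel markers 3 were called lower and 1 higher (median -0.50), and of 8 of the oligodendrocyte lineage 2 lower and 1 higher. Fewer cells of a type and less RNA per cell cannot be told apart here, and the part of these markers in the results on members was not tested.

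The harvest time separated the members. Later harvests were called lower than 5 min for 45 of the 58 tested members (limma, adjusted p under 0.05) and higher for 2, while of all 11792 probes 23.4% were called lower and 25.9% higher. The median difference was -1.12 over tested members (-1.11 with 8 of the 10 members undetected on all later arrays set at their bound and the other 2, which have none, at 0) and -0.01 over all tested probes, on the log2 scale. Other scalings of the arrays gave clearly smaller medians over members, listed in the last section. All 45 members were lower in each of the 4 treatments, whose mean the call tests, so this is no separate support. Of these members 31 were lower by more than 2-fold, and neither share was counted over all probes. For 41 of the 58 members every later array lay below every array of 5 min, which held for 12.4% of all tested probes. A filter on detection can favour this pattern, since 24 tested members were not detected on every array and 10 of them passed through arrays of 5 min alone. Among the 34 members detected on all 12 arrays, which do not depend on that filter, 27 were called lower and 2 higher, against 27.2% and 26.9% of 8500 such probes.

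**Figure D1:**
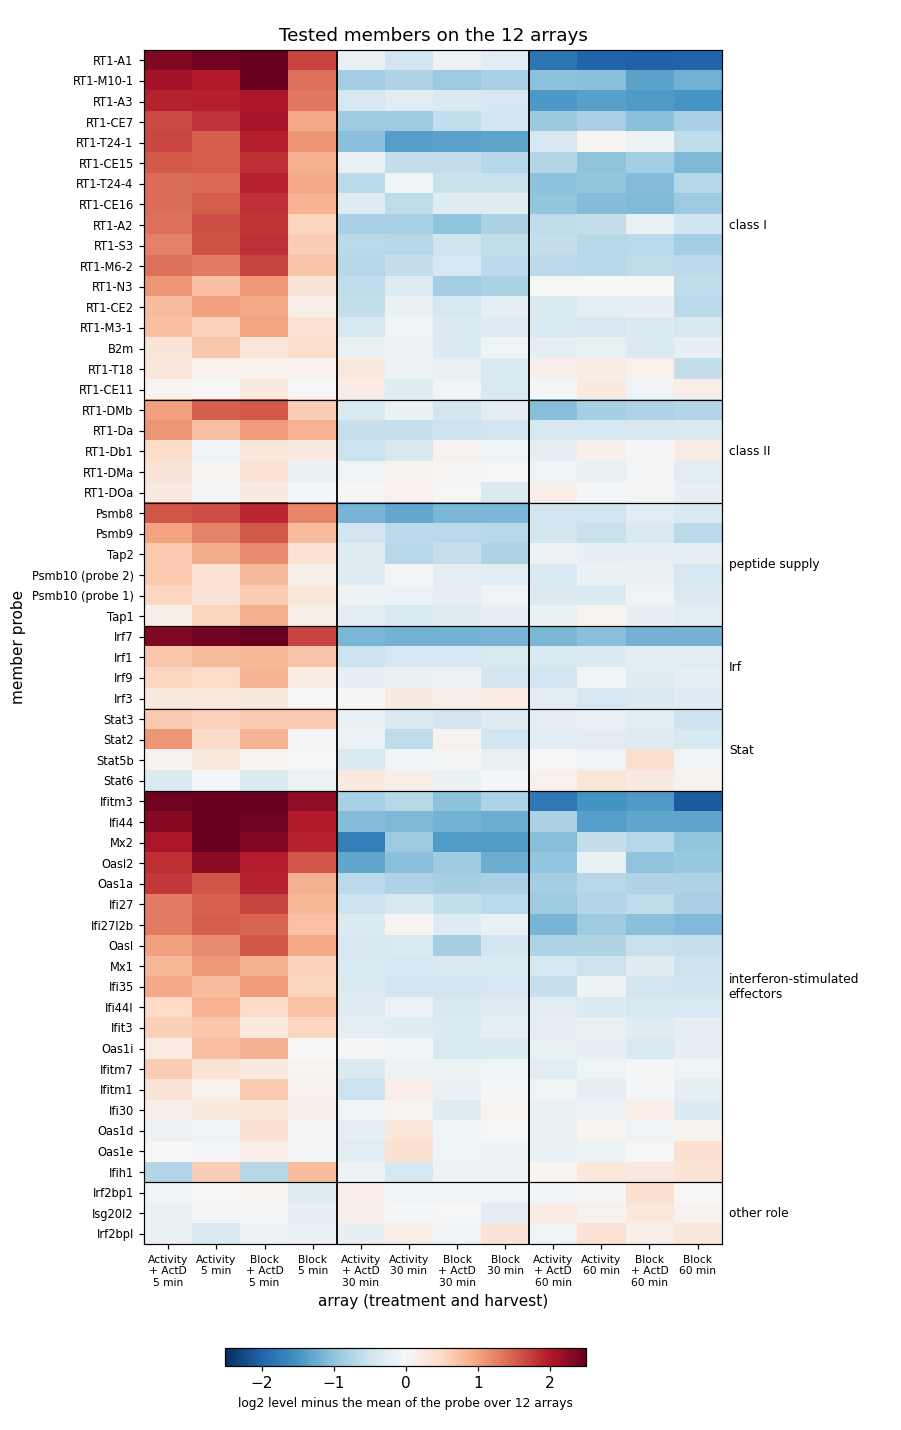
Each row is 1 of the 58 tested member probes, grouped by role, and each column 1 of the 12 arrays, ordered by harvest and then by treatment. Colour gives the log2 level minus the probe's own mean over 12 arrays, and the 4 columns of 5 min are redder than the 8 later columns for most class I, peptide supply and effector probes.

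Class I genes held many of the large differences. Of 17 tested probes 15 were called lower at the later harvests, with a median difference of -2.0. B2m, the light chain shared by class I molecules, ran from 13.65 through a median of 13.82 to 13.91 on later arrays, against 14.33 in Activity+ActD, 14.72 in Activity, 14.32 in Block+ActD and 14.46 in Block at 5 min. Its difference of -0.66 ± 0.05 on the log2 scale (adjusted p = 2.70e-07) was among the smaller ones of this group. RT1-A1, RT1-A2 and RT1-A3 belong to the RT1-A group of heavy chains, which holds the classical class I genes. For RT1-A1, later arrays ran from 6.69 through a median of 7.57 to 8.58 and arrays of 5 min had 11.02 in Activity+ActD, 11.12 in Activity, 11.18 in Block+ActD and 10.40 in Block. The RT1-A1 difference was -3.33 ± 0.11, or 10.1-fold lower (adjusted p = 4.93e-11). RT1-A3 showed 8.14 through a median of 8.72 to 9.33 later, against 11.53 in Activity+ActD, 11.56 in Activity, 11.63 in Block+ActD and 10.93 in Block at 5 min, and differed by -2.70 ± 0.09. Later arrays of RT1-A2 ran from 5.96 through a median of 6.25 to 6.78, below 8.34 in Activity+ActD, 8.57 in Activity, 8.75 in Block+ActD and 7.52 in Block at 5 min (-2.0 ± 0.16). In each of these genes the groups did not overlap, and Block was the lowest of the arrays of 5 min for the 3 heavy chains.

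The other class I probes belong to the CE, M, N, S and T regions of RT1, where most genes are nonclassical. RT1-CE15 ran from 5.37 through a median of 5.76 to 6.31 later, against 8.02 in Activity+ActD, 8.0 in Activity, 8.33 in Block+ActD and 7.37 in Block at 5 min (-2.17 ± 0.12). RT1-CE16, detected on 3 of 8 later arrays, ran from 4.65 through a median of 4.97 to 5.44 later, against 7.14 in Activity+ActD, 7.25 in Activity, 7.56 in Block+ActD and 6.62 in Block at 5 min (-2.10 ± 0.14). RT1-M6-2 ran from 6.33 through a median of 6.39 to 6.62 later, against 8.42 in Activity+ActD, 8.32 in Activity, 8.73 in Block+ActD and 7.76 in Block at 5 min (-1.89 ± 0.12). All 3 were well above background at 5 min and separated completely. RT1-M10-1, of a family best known from vomeronasal neurons in mice, ran from 4.99 through a median of 5.36 to 5.57 later, against 8.42 in Activity+ActD, 8.32 in Activity, 8.86 in Block+ActD and 7.71 in Block at 5 min, and was 7.95-fold lower. RT1-T24-1 ran from 4.94 through a median of 5.47 to 6.35 later, against 7.98 in Activity+ActD, 7.80 in Activity, 8.26 in Block+ActD and 7.43 in Block at 5 min (-2.33 ± 0.13). For RT1-T24-4 later arrays ran from 5.38 through a median of 5.77 to 6.36, and those of 5 min had 7.86 in Activity+ActD, 7.88 in Activity, 8.39 in Block+ActD and 7.41 in Block (-2.14 ± 0.16). A pair of probes, RT1-CE7 and RT1-S3, were detected on all 4 arrays of 5 min and on no later array. RT1-CE7 was 7.29 in Activity+ActD, 7.45 in Activity, 7.70 in Block+ActD and 6.61 in Block at 5 min, and therefore at least 4.19-fold lower later. RT1-S3 was 6.71 in Activity+ActD, 7.05 in Activity, 7.28 in Block+ActD and 6.10 in Block at 5 min, and at least 3-fold lower later. These bounds set the mean of the 5 min arrays against the mean, over later arrays, of the lowest level at which any probe was detected. RT1-CE2, RT1-M3-1 and RT1-N3 were also called lower, by -1.22 to -1.01, while RT1-T18 (-0.22 ± 0.12) and RT1-CE11 (-0.10 ± 0.13) did not pass the test and their groups overlapped. Many class I heavy chain genes are similar in sequence, and whether each probe reads only 1 of them was not tested.

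Of class II, 2 of 5 tested probes were called lower over all arrays. Taken apart by ActD, 4 of 5 were called lower with it and 2 of 5 without it, against 23.9% and 12.3% of all tested probes. The test of the difference between with and without ActD called 0 of the 5 (limma, lowest adjusted p = 0.195). These counts therefore do not show a difference by ActD. RT1-DMb, a chain of the DM molecule that loads peptides onto class II, ran from 4.99 through a median of 5.47 to 5.89 later, against 7.09 in Activity+ActD, 7.55 in Activity, 7.60 in Block+ActD and 6.68 in Block at 5 min (-1.75 ± 0.14, adjusted p = 4.57e-07). RT1-Da, the alpha chain of the rat class II D molecule, was detected at 5 min only, at 6.47 in Activity+ActD, 6.12 in Activity, 6.44 in Block+ActD and 6.25 in Block, and was at least 2.18-fold lower later. Its partner RT1-Db1 overlapped between harvests, at 4.78 to 5.52 later against 5.23 to 5.78 at 5 min, and missed the threshold (adjusted p = 0.0515). RT1-Db1 passed without a variance trend or with robust variance estimation. It also passed without Activity of 5 min, Block+ActD of 30 min or Activity of 60 min. RT1-DMa, the other DM chain, was detected on every array and differed by -0.21 ± 0.09 (adjusted p = 0.06), and RT1-DOa, of the DM regulator DO, by -0.14 ± 0.10. RT1-DMa passed when Block of 5 min or Block of 30 min was left out. The DM chains thus gave different values, without a test of the difference between them.

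All 6 probes of peptide supply were called lower at the later harvests, with a median of -0.95. Psmb8, a catalytic subunit of the immunoproteasome, ran from 6.23 through a median of 6.71 to 7.25 later, against 9.06 in Activity+ActD, 9.12 in Activity, 9.39 in Block+ActD and 8.73 in Block at 5 min (-2.35 ± 0.10, 5.1-fold lower, adjusted p = 5.53e-10). Psmb9, another of these subunits, ran from 8.06 through a median of 8.15 to 8.36 later, against 9.75 in Activity+ActD, 9.99 in Activity, 10.28 in Block+ActD and 9.54 in Block at 5 min (-1.71 ± 0.10). Both separated completely between harvests. The 2 probes of Psmb10, the remaining inducible subunit, differed by -0.66 ± 0.07 and -0.74 ± 0.10, so they gave the same direction and similar sizes. Tap2 and Tap1, the subunits of the peptide transporter, differed by -1.17 ± 0.13 and -0.66 ± 0.13. Tap2 ran over 5.18 to 5.82 later against 6.30 to 7.14 at 5 min, and Tap1 over 5.71 to 6.15 later against 6.23 to 6.98 at 5 min.

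All 4 tested interferon regulatory factors were called lower, by very different amounts. Irf7, the factor that amplifies type I interferon, was detected on all 4 arrays of 5 min, at 7.87 in Activity+ActD, 7.97 in Activity, 8.35 in Block+ActD and 7.24 in Block, and on no later array, where it measured 4.36 to 4.51. It was at least 6.33-fold lower later. Irf1, which responds to interferon gamma and drives class I and immunoproteasome genes, ran from 8.44 through a median of 8.59 to 8.71 later, against 9.66 in Activity+ActD, 9.75 in Activity, 9.80 in Block+ActD and 9.69 in Block at 5 min (-1.13 ± 0.06, adjusted p = 1.15e-08). The 4 treatments lay close together for Irf1 at 5 min (SD 0.06, n = 4). Irf9, the DNA-binding part of the complex with Stat2, differed by -0.76 ± 0.12. Irf3, which starts the response downstream of nucleic acid sensors, overlapped between harvests, at 8.62 to 9.27 later against 9.05 to 9.31 at 5 min, with a difference of -0.29 ± 0.08 that lost its call when arrays were scaled to equal totals or medians.

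The Stat genes split. Stat3, which transmits interleukin 6 and related signals, ran from 7.19 through a median of 7.42 to 7.56 later, against 8.36 in Activity+ActD, 8.29 in Activity, 8.36 in Block+ActD and 8.36 in Block at 5 min (-0.94 ± 0.09, adjusted p = 1.89e-06). Stat2, needed for type I interferon, was called lower by 1 probe (-0.92 ± 0.14), with overlapping groups, while its other probe was detected on no array. Stat5b did not pass (-0.16 ± 0.11). Stat6, which carries interleukin 4 signals, was called higher (0.34 ± 0.09, adjusted p = 0.00464), at 8.79 to 9.26 later against 8.59 to 8.93 at 5 min. The Stat3 groups were fully apart, and those of Stat6 overlapped.

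Of the 19 tested interferon-stimulated effectors, 16 were called lower at the later harvests, with a median of -1.26. Ifitm3, a membrane protein that keeps viruses from entering cells, ran from 6.18 through a median of 7.05 to 7.57 later, against 10.69 in Activity+ActD, 11.08 in Activity, 10.89 in Block+ActD and 10.47 in Block at 5 min. Its difference of -3.78 ± 0.11 (13.7-fold lower, adjusted p = 9.00e-12) was the largest among members measured on every array. The dynamin-like GTPases Mx2 and Mx1 trap viral components. Mx2 ran from 4.88 through a median of 5.57 to 6.0 later, against 8.63 in Activity+ActD, 9.06 in Activity, 8.91 in Block+ActD and 8.51 in Block at 5 min (-3.28 ± 0.10), and Mx1 ran from 7.71 through a median of 7.85 to 7.94 later, against 9.08 in Activity+ActD, 9.34 in Activity, 9.15 in Block+ActD and 8.83 in Block at 5 min (-1.27 ± 0.09). Ifi44 was detected at 5 min only, at 8.22 in Activity+ActD, 8.68 in Activity, 8.37 in Block+ActD and 7.93 in Block, and was at least 8.61-fold lower later, the highest bound of any member. Its relative Ifi44l was near background at 5 min, at 5.23 in Activity+ActD, 5.58 in Activity, 5.21 in Block+ActD and 5.45 in Block. It was detected there on the 2 arrays without ActD only, and on no later array. Its bound of 1.13-fold lower later takes in the 2 undetected levels with ActD, so it gives no firm size.

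Active enzymes of the Oas family make an RNA-like messenger that switches on the nuclease RNase L when double-stranded RNA is present. Whether each gene named here encodes an active enzyme was not tested. Oas1a was 7.0 in Activity+ActD, 6.81 in Activity, 7.17 in Block+ActD and 6.14 in Block at 5 min and undetected later, at least 3.01-fold lower. Oasl was 6.48 in Activity+ActD, 6.63 in Activity, 7.01 in Block+ActD and 6.42 in Block at 5 min and undetected later, at least 2.71-fold lower. Oasl2 was detected on 1 later array and ran from 4.61 through a median of 4.91 to 5.73 later, against 7.77 in Activity+ActD, 8.17 in Activity, 7.87 in Block+ActD and 7.47 in Block at 5 min (-2.85 ± 0.12). Among other copies of Oas1, Oas1d (-0.04 ± 0.12) and Oas1e (-0.02 ± 0.14) did not pass, and Oas1b, Oas1f, Oas1h and Oas1k were detected on no array. Ifi27 ran from 9.75 through a median of 9.98 to 10.22 later, against 11.93 in Activity+ActD, 12.12 in Activity, 12.31 in Block+ActD and 11.46 in Block at 5 min (-1.98 ± 0.09). Ifi27l2b, of the same family of small hydrophobic proteins, ran from 10.47 through a median of 11.02 to 11.69 later, against 12.94 in Activity+ActD, 13.16 in Activity, 13.09 in Block+ActD and 12.37 in Block at 5 min (-1.87 ± 0.10). Both were far above background on every array, so their difference does not rest on dim signals. For Ifi35 later arrays ran from 6.07 through a median of 6.2 to 6.52, against 7.63 in Activity+ActD, 7.43 in Activity, 7.73 in Block+ActD and 7.21 in Block at 5 min (-1.26 ± 0.11). Ifitm7 (-0.48 ± 0.12), Ifitm1 (-0.45 ± 0.13) and Ifi30, a lysosomal thiol reductase (-0.30 ± 0.10), were called lower as well. So were Ifit3 and Oas1i, but each was detected on 2 of 4 arrays of 5 min and on no later array. For Ifit3 these were the 2 arrays without ActD. Both genes had a mean at 5 min below the lowest detected level later, so no size is given. The call of Ifitm1 was lost without Activity+ActD or Block+ActD of 5 min, and that of Ifi30 without any 1 of the arrays of 5 min, or without Activity+ActD, Activity or Block of 60 min. With arrays scaled to equal totals the calls of Ifitm7, Ifitm1 and Ifi30 were lost, and with equal medians that of Ifi30.

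Isg20l2 (0.17 ± 0.09) and Irf2bp1 (0.12 ± 0.08) did not pass the test between harvests, and Irf2bpl was called higher (0.32 ± 0.11), a call lost without Block or Activity of 5 min, Block or Activity of 30 min, or Activity of 60 min. With Stat6 it was one of the 2 members called higher.

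**Figure D2:**
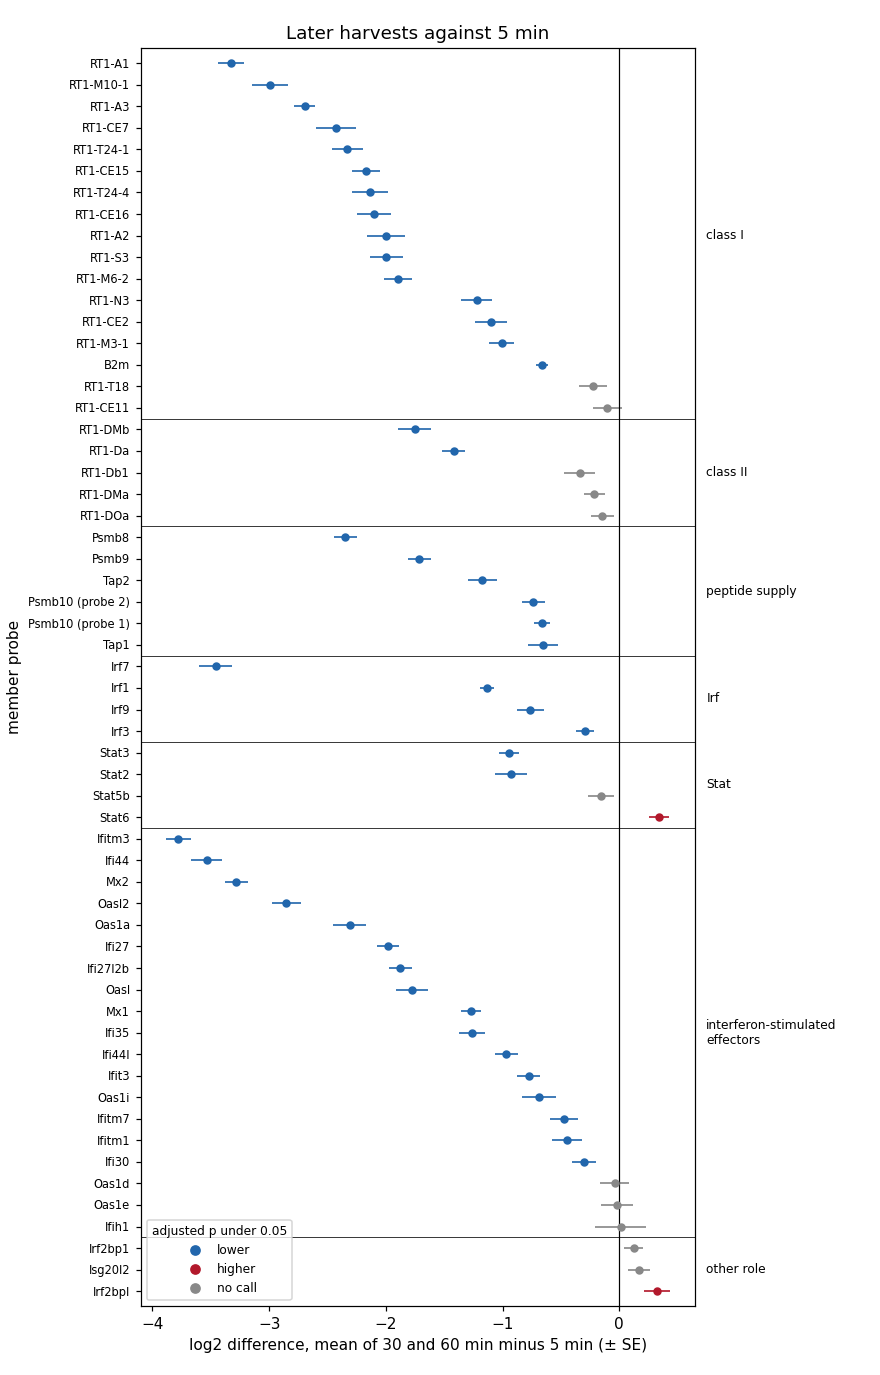
Points give the log2 difference of each tested member probe, the mean of 30 and 60 min minus 5 min over the 4 treatments, and bars the SE of the limma fit. The 45 blue points left of 0 are called lower, the 2 red points (Stat6 and Irf2bpl) higher, and grey points did not pass. Members undetected on all later arrays are drawn at their fitted values, which are set against background.

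The promoter cores were counted beside these calls as a description. The ISRE core was present in 17 of 39 promoters of members called lower (43.6%) and in 1 of 13 of those tested and not called lower (7.69%). Over all tested genes with a promoter it was present in 2.83%, and over those called lower in 4.32%, and both sets include members. The GAS core was present in 8 (20.5%) of the members called lower and in 2 (15.4%) of those not called lower. It was present in 6.89% of all tested genes with a promoter and in 7.04% of those called lower. Members were picked by symbols of interferon genes, so these counts are no separate support. Oas1a and Oas1i each held 2 overlapping cores, and the matches of Oas1a read GAAATGGAAA and GAAACTGAAA. Tap1, Tap2 and B2m also carried 1 ISRE core each and Psmb10 carried 2, while Irf1 held a GAS core only, TTCCCCGAA at 142 bases before its start.

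Pathway genes that the symbol rule leaves out were counted in the same contrast. Of 19 tested probes of other interferon-stimulated genes, 15 were called lower at the later harvests and 0 higher, with a median of -1.29. The 3 with the lowest p were Cxcl10 and Cxcl11, chemokines that attract T cells, and Gbp2, a guanylate-binding GTPase. Gbp2 was detected on every array and differed by -2.76 ± 0.09, while Cxcl10 was at least 9.9-fold and Cxcl11 at least 5.2-fold lower later, both being undetected there. Other genes of antigen presentation had 9 of 15 probes lower (60.0%) and 3 higher (20.0%), and nucleic acid sensors and adaptors 3 of 7 lower (42.9%) and 1 higher (14.3%). Kinases and regulators had 6 of 11 lower (54.5%) and 3 higher (27.3%), and interferon ligands and receptors 2 of 4 lower and 1 higher. Of all tested probes 23.4% were lower and 25.9% higher, so the shares called higher in these lists were near or below that of all probes. Among kinases and regulators, named after their values were seen, Jak3, Ptpn1, Ptpn6, Socs1, Nmi and Usp18 were lower and Jak1, Jak2 and Pias1 higher. Ptpn6, Socs1 and Usp18 were detected on no later array, so their differences are set against background. Their bounds were 1.58-fold lower later for Ptpn6, 1.05-fold for Socs1 and 1.83-fold for Usp18.

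Between 60 and 30 min, 3 members were called higher and 6 lower at 60 min, against 2.89% and 3.58% of all tested probes, and the median over the 58 members was -0.01. RT1-A1 was 6.69 to 6.91 at 60 min and 8.24 to 8.58 at 30 min (-1.69 ± 0.13, adjusted p = 4.07e-06), and RT1-A3 was 8.14 to 8.25 at 60 min and 9.19 to 9.33 at 30 min (-1.05 ± 0.10). Ifitm3 (-0.88 ± 0.12) and Ifi27l2b (-0.85 ± 0.11) were lower at 60 min too, in 4 of 4 treatments each. These 4 genes were thus lower at 60 than at 30 min, in other cultures, so a course within a culture was not measured. Irf3 was 8.62 to 8.77 at 60 min and 9.06 to 9.27 at 30 min (-0.50 ± 0.09, adjusted p = 0.00339), so its arrays of 30 min overlapped those of 5 min and its arrays of 60 min lay below both. Psmb8 was higher at 60 min, at 7.05 to 7.25 against 6.23 to 6.37 at 30 min (0.80 ± 0.11, adjusted p = 0.000618), but below all arrays of 5 min. RT1-T24-1 was higher at 60 min as well (0.98 ± 0.15), at 5.67 to 6.35 against 4.94 to 5.26 at 30 min. RT1-T24-1 and Mx2 were each detected on 1 of 4 arrays of 30 min, so their levels there are close to background. RT1-CE16 was detected on 3 of 4 arrays of 30 min and on 0 of 4 of 60 min, and was at least 1.13-fold lower at 60 min. The calls of Mx2 (0.51 ± 0.11) and RT1-CE16 were lost under more alternatives than the others. That of Mx2 was lost without Activity+ActD of 30 min or any of Activity+ActD, Block+ActD or Block of 60 min, and both were lost with equal totals, equal medians or quantile scaling without background correction. That of RT1-CE16 was also lost without Activity+ActD of 5 min, any array of 30 min, or any of 60 min but Block.

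**Figure D3:**
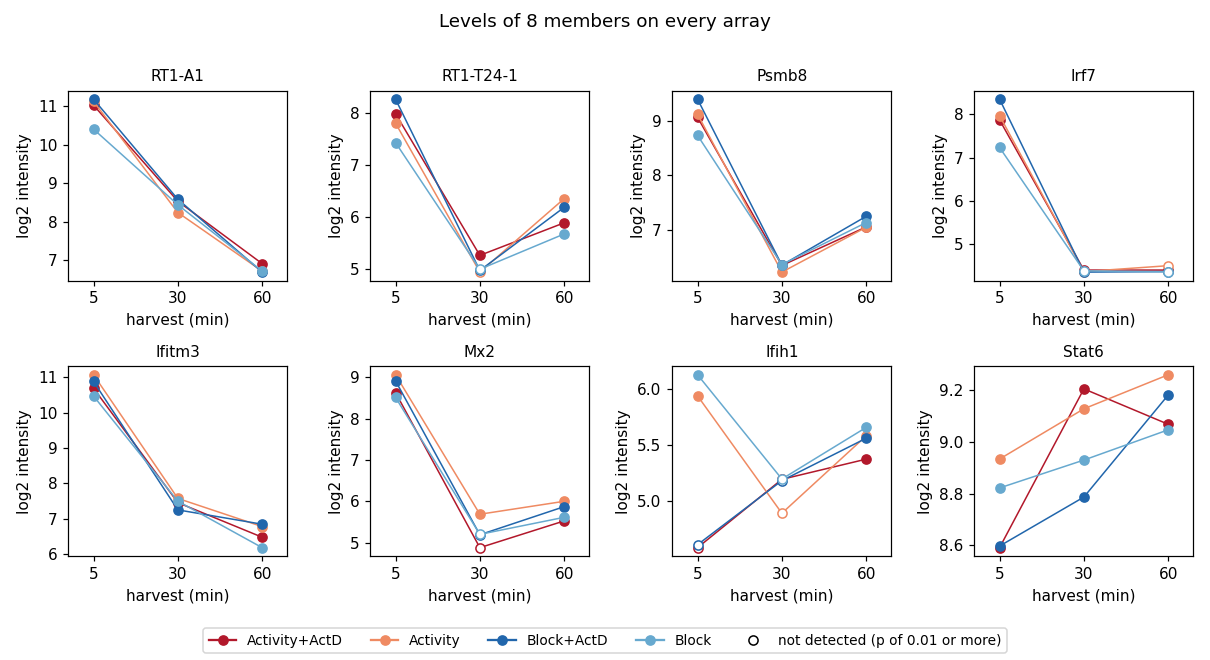
Each panel plots the log2 intensity of 1 member at 5, 30 and 60 min in the 4 treatments, 1 array per point, with open points where the probe was not detected and a separate vertical scale per gene. RT1-A1 and Ifitm3 are lowest at 60 min, Psmb8 and RT1-T24-1 are lowest at 30 min, and Ifih1 at 5 min is low on the 2 arrays with ActD only.

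The harvest difference was taken apart by ActD, since transcription was blocked in one arm. With ActD, 46 members were called lower later and 2 higher, against 23.9% and 23.8% of all tested probes, with a median of -1.23. Without ActD, 40 were called lower and 1 higher, against 12.3% and 14.4% of all tested probes, with a median of -1.01. The arms share no array. Ifitm3 differed by -3.79 ± 0.18 with ActD and -3.77 ± 0.18 without it, and RT1-A1 by -3.42 ± 0.16 with ActD and -3.23 ± 0.16 without it. Irf7, undetected on all later arrays, was at least 7.61-fold lower with ActD and at least 5.27-fold lower without it. The test of the difference between the arms called 1 member of 58, which was higher with ActD, and 0 lower, against 3.5% and 0.22% of all tested probes, and 10 members (17.2%, against 20.4% of all tested probes) had an unadjusted p under 0.05. That count was 4 without Block or Block+ActD of 5 min and 24 without Activity of 5 min. Members called in only 1 arm therefore do not show a difference between the arms. For RT1-M10-1, with -3.35 ± 0.18 with ActD and -2.63 ± 0.18 without it, the adjusted p of the difference was 0.142.

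The member called between the arms was Ifih1, which encodes MDA5, a cytosolic sensor of long double-stranded RNA. At 5 min it measured 4.59 in Activity+ActD, 5.94 in Activity, 4.61 in Block+ActD and 6.12 in Block, so it was undetected on both arrays with ActD and detected on both without it. It was at least 1.62-fold lower with ActD at 5 min. On later arrays it ran from 4.89 through a median of 5.29 to 5.66, with overlapping treatments. The fitted later difference was 0.73 ± 0.14 with ActD and -0.70 ± 0.14 without it, and that between the arms was 1.42 ± 0.20 (adjusted p = 0.0101). The values with ActD are set against background, and the later mean with ActD, 5.33, did not exceed the lowest detected level of the ActD arrays of 5 min, 5.34, so no size of a rise with ActD can be given. The call was lost without Block of 5 min (1.39) or Block+ActD of 5 min (1.36) and kept without Activity or Activity+ActD of 5 min. Each of these fits leaves 1 array of 5 min in an arm. The difference was 0.54 with arrays scaled to equal totals, 0.69 with equal medians and 0.70 with quantile scaling without background correction, and passed in each of these. Without Activity of 5 min, 5 other members were called lower in this contrast (Ifi27l2b, Oas1a, RT1-A2, RT1-CE7 and RT1-A3), where 4.32% of all tested probes were called in either direction, and 0 members were lower with all arrays.

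**Figure D4:**
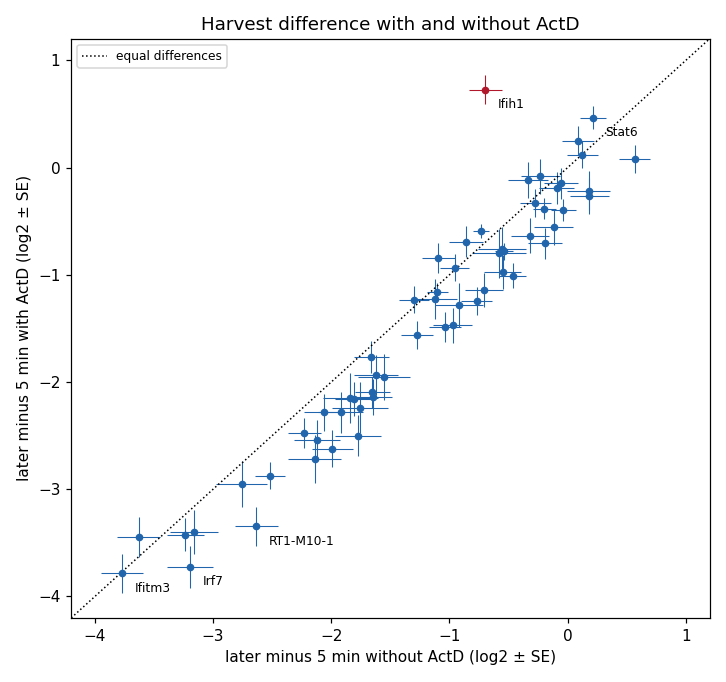
The log2 difference of later harvests minus 5 min in each of 58 tested members is plotted with ActD (vertical axis) against without ActD (horizontal axis), with SE bars and a dotted line of equal differences. Most points lie near or slightly below the line, and Ifih1 (red) lies above it, at fitted values of 0.73 with ActD and -0.70 without. Points of members undetected on a side of the comparison are set against background.

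Whether 5 min of synaptic activity changed the members was compared with and without ActD. Over the 3 harvests limma called 0 of 58 members with ActD and 0 without it, as it called 0.0% of all tested probes in either comparison. At an unadjusted p under 0.05 there were 1 member (1.7%) with ActD and 8 (13.8%) without it, against 2.87% and 7.5% of all tested probes. With an array left out these counts ran from 0 to 5 with ActD and from 4 to 12 without it, highest when Block+ActD of 30 min (with ActD) or Block of 30 min (without it) was the array left out. With ActD the median difference of Activity minus Block was -0.10, with 44 of 58 members lower. Without ActD it was 0.17, with 53 of 58 higher, against 0.01 over all tested probes. The medians were farthest from 0 at the first harvest. At 5 min the median was -0.16 with ActD and 0.34 without it, at 30 min 0.01 with ActD and 0.06 without it, and at 60 min -0.06 with ActD and 0.06 without it. Single pairs of arrays have no test. Without Block+ActD of 5 min the median over harvests with ActD was 0.02, on the other side of 0.

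**Figure D5:**
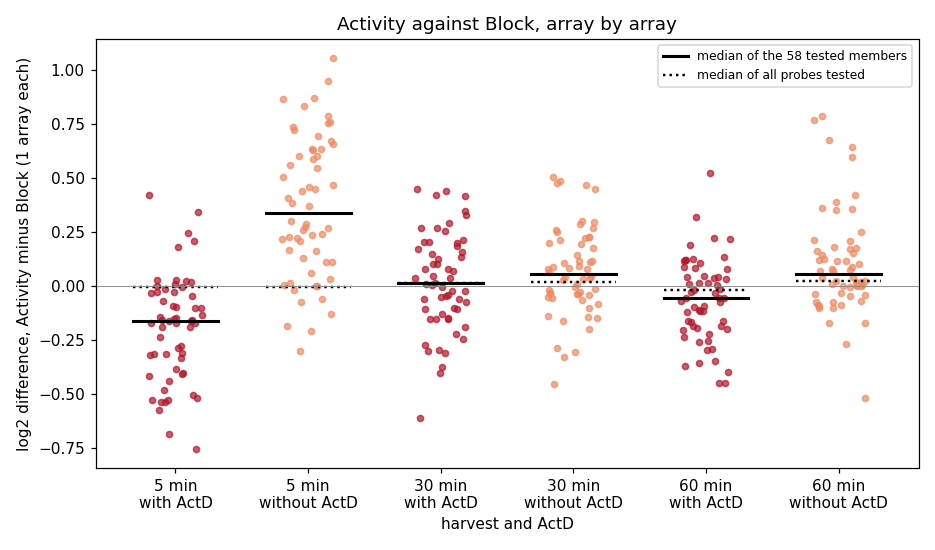
Each point is the log2 difference of Activity minus Block for 1 tested member, from 1 array each, by harvest with and without ActD. Solid lines mark the median of the 58 members and dotted lines that of all 11792 probes tested. Members lie above 0 without ActD at 5 min (median 0.34) and below it with ActD (median -0.16), and near 0 at the later harvests.

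The single arrays of 5 min held most of this. Block was the lowest of the 4 arrays of 5 min for 43 of 58 members (74.1%), against 34.3% of all tested probes, and Block+ActD the highest for 37 (63.8%), against 33.8%. Activity was more than 1.5-fold above Block without ActD for 19 members at 5 min (2.03% of all tested probes), and Block+ActD more than 1.5-fold above Block for 27 (6.04%). Without the array of Block at 5 min the median activity effect without ActD was 0.06, and the median ActD effect in Block cultures 0.09. Microglia markers moved with the members. Activity minus Block had a median of -0.11 with ActD (8 of 9 tested markers lower) and 0.14 without it (9 of 9 higher), and ActD in Block cultures one of 0.22 (9 of 9 higher). Neuron markers had medians of 0.05 with ActD (11 of 15 higher) and -0.19 without it (13 of 15 lower). The part of these markers in the members' differences was not tested.

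Mx2 had the lowest p of the members in the activity comparisons. Activity minus Block was -0.29 at 5 min, -0.31 at 30 min and -0.34 at 60 min with ActD, and 0.55 at 5 min, 0.49 at 30 min and 0.39 at 60 min without it. At 30 min Mx2 was detected in Activity without ActD only, so the value with ActD at that harvest is between undetected levels. The fitted differences were -0.31 ± 0.13 with ActD and 0.47 ± 0.13 without it (adjusted p = 0.996 with ActD and 0.654 without it). Ifi27l2b followed without ActD, at 0.40 ± 0.13 and higher at 3 of 3 harvests, and did not pass either. Oasl2 was next to Mx2 by p, but of the later arrays it was detected on Activity of 60 min alone, and its difference without ActD at 5 min was 0.69. With ActD the next lowest p belonged to Oas1d (-0.25 ± 0.16) and Stat5b (-0.23 ± 0.15). The interaction called 0 of 58 members and 0.0% of all tested probes, with 6 members at an unadjusted p under 0.05 (5 to 15 with an array left out, the highest without Block+ActD of 30 min) and a median of -0.23 (-0.36 to -0.14). The 9 microglia markers were all below 0 in the interaction too, with a median of -0.35. Class I probes without ActD were all higher in Activity (17 of 17, median 0.27), against 6275 of 11792 tested probes, and none of them passed the test. Their median by harvest ran from 0.05 to 0.60, the highest at 5 min, and they share the same arrays.

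ActD itself was compared within each stimulus. In Activity cultures limma called 0 members and 0.0% of all tested probes, with 4 members at an unadjusted p under 0.05 and a median of -0.05. Mx2, Oasl2 and B2m had the lowest p there. B2m, detected on every array, was lower with ActD at 3 of 3 harvests (-0.16 ± 0.07), and Mx2 (-0.57 ± 0.13) and Oasl2 were often undetected later. In Block cultures it called 0 members and 0.0% of all tested probes, with 13 members at an unadjusted p under 0.05 (22.4%, against 23% of all tested probes) and a median of 0.23. That count was 2 without Block or Block+ActD of 5 min and 21 without Block+ActD of 30 min. Ifi27 (0.37 ± 0.13), RT1-CE15 (0.45 ± 0.16) and Stat2 (0.49 ± 0.18) had the lowest p, with adjusted p from 0.128 to 0.144. Without Block+ActD of 30 min, 11.3% of all tested probes were called in either direction, and 6 of 58 members passed as higher with ActD in Block cultures, a share near that of all probes. They were Ifi27, Psmb9, Psmb10, RT1-CE15, RT1-N3 and Irf2bp1.

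The probe most like a member over the 12 arrays was sought for Ifitm3, the member with the lowest p in any contrast. Pearson's r of log2 levels was 0.9954 with Cyba, a subunit of the NADPH oxidase, 0.9953 with Ier3, an early response gene, 0.9941 with Igfbp7, a secreted binding protein, 0.9937 with Tf, transferrin, and 0.9935 with Gpx1, glutathione peroxidase. None of these is a member. The 12 points share their treatments and fall into 2 clusters by harvest, so the values describe likeness of pattern and carry no test.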

How the data were processed

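RNA from 12 rat hippocampal cultures (4 treatments at 3 harvests, 1 array each) was hybridised to 1-colour Illumina arrays. Summarised probe intensity and a detection p-value per probe and array were deposited by the authors, who used BeadStudio; the intensity table without normalization was used here, and a second deposited table, scaled to equal totals (scale factors 0.882 to 1.12), served as an alternative. Intensities were background-corrected, quantile-normalized and log2-transformed with neqc of limma 3.58.1 in R 4.3.3 (offset 16). Probes with a detection p-value under 0.01 on at least 2 of 12 arrays were kept (11792), and fits with treatment and harvest terms (6 degrees of freedom), or harvest within ActD and stimulus (5), used lmFit and eBayes with Benjamini-Hochberg adjustment at 0.05 over all of them. The platform annotation named 13793 probes with 1 symbol and left 8730 unnamed, and all 87 member symbols matched RefSeq GRCr8. Values are given for members past the threshold in any contrast and for the 3 with the lowest p in each, the rest by range and count, and for at most 3 genes of the other pathway lists by lowest p. The members and lists were chosen with earlier results of these data known. The fits were tested on simulated data. Alternatives were other scalings, filters and variance estimates, subsets of arrays, and leaving out each array. The number of arrays limits the precision.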

Additional observations from a re-analysis of the deposited data

Results flagged for a closer look

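For 7 members the difference of Activity minus Block was below 0 at all 3 harvests with ActD and above 0 at all 3 without it. The differences between these effects were -0.79 ± 0.18 for Mx2, -0.63 ± 0.25 for RT1-CE2, -0.50 ± 0.18 for Ifi27l2b, -0.43 ± 0.22 for Irf9, -0.38 ± 0.19 for a probe of Psmb10, -0.35 ± 0.17 for RT1-A3 and -0.22 ± 0.17 for RT1-DMa on the log2 scale. Of all tested probes 13.6% were below 0 at all 3 harvests with ActD and 21.0% above 0 at all 3 without it. The share of all probes with both was not counted. Mx2 was undetected on 3 of 4 arrays of 30 min. None passed the limma test of the interaction, with an adjusted p of 0.736 for RT1-DMa and 0.705 for the others. Ifih1 is listed because its harvest difference was higher with ActD than without it, by 1.42 ± 0.20 (limma, adjusted p = 0.0101), a fitted value set against background, since it was undetected on both ActD arrays of 5 min.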

How the results depend on the processing

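Of 47 members called between the later harvests and 5 min, 43 to 47 were called under each alternative that tested them all, and leaving out single arrays gave 43 to 46 called lower and 1 to 2 higher. Arrays scaled to equal totals gave 4 called higher, no filter on dim probes 1, and probes detected on all 12 arrays 27 lower. The median over members was -0.63 with equal totals, -0.65 with equal medians, -0.70 with quantile scaling without background correction, -0.38 with no filter (89 probes) and -0.93 for probes on all 12 arrays.

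For 60 against 30 min, single left-out arrays gave 2 to 3 called higher and 5 to 7 lower, and probes detected on all 12 arrays gave 1 higher. With ActD the later harvests gave 42 to 47 lower and 1 to 2 higher with an array left out, and 28 lower and 1 higher for probes on all 12 arrays. Without ActD they gave 36 to 42 lower and 0 to 1 higher with an array left out, 22 lower for probes on all 12 arrays and 2 higher with equal totals. The difference between these arms gave 0 to 1 higher and 0 to 5 lower with an array left out (the 5 without Activity of 5 min, where 4.32% of all probes were called), 2 higher with equal medians and 0 higher for probes on all 12 arrays, which leave out Ifih1.

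Activity without ActD called 1 member higher, Ifi27l2b (0.40), when the arrays without ActD alone were fitted, where 1.53% of all probes were called. ActD in Block cultures called 0 to 6 higher with an array left out, the 6 without Block+ActD of 30 min, where 11.3% of all probes were called. The median activity effect ran over -0.17 to 0.02 with ActD and 0.06 to 0.23 without it, and the cause was not tested. No result changed its sign past the threshold. The fit with treatment and harvest terms compared treatments within harvests, but all 12 arrays carry replicate number 3 and no combination was replicated. Dim probes near background and 1 array per combination limit all of these values.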
